A study of Arabidopsis thaliana with 156 samples.

Results

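Shoot apices of Arabidopsis thaliana plants that express a miR156 target mimic were compared at day 6 with apices of the same genetic background without the mimic. The members were chosen by array title: 3 arrays of FRI;FLC;35S::miR156mimic and 2 arrays of FRI;FLC, 5 of the 156 arrays of the series. All 5 samples came from Col-0 plants that carry the FRI allele of Sf-2 and a functional FLC gene, so both groups share the strong repression of flowering that FRI gives through FLC. The mimic was driven by the 35S promoter, which is active in most tissues, and the labels do not say how many independent lines were used. FRI;FLC apices of day 4 and day 9, with 3 arrays each, served as neighbouring ages. FRI;flc-3 apices, which lack FLC function, and FRI;FLC leaf primordia are also set beside the mimic below. The primordia came from a different experiment from the apices. Plants grew at 23 °C under 16 h days, and each apex was collected with its leaf primordia of up to 1 mm. Each replicate held 120 apices on days 4 and 6 and 60 on day 9, and RNA from 3 collections within a day was pooled. The replicates of each comparison are separate pools within 1 experiment, so the p-values measure the spread among pools, not among experiments. For the apex tests that spread came from all 30 apex arrays in 11 groups, not from the 5 arrays alone.

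miR156 is a microRNA that is abundant in seedlings and declines as the shoot ages. It represses transcription factors of the SPL family and so holds the plant in its juvenile phase, and as it declines the shoot begins to form adult leaves. A target mimic is a transcript with a miR156 site that cannot be cleaved: it binds the microRNA and lowers its activity, which frees the SPL factors and brings adult traits forward. SPL factors in turn raise miR172, a second microRNA that represses a group of AP2-like repressors of flowering. The SPL genes, the mimic transcript and FLC itself were not analysed here, so the identity of the mimic arrays rests on their titles.

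Values are log2 signals of probe sets, in which 1 unit is a 2-fold difference. The median signal on the 5 arrays was 6.66, and 10% of signals lay below 2.02, so a level near 2 is close to the floor and the size of a difference from it is uncertain. A probe set was called when the limma test, adjusted by Benjamini-Hochberg over all 19324 probe sets, gave a p under 0.05. Of these probe sets, 10918 could be tied to exactly 1 gene. A gene counts as measured below only if it had such a probe set. A further 7999 probe sets have signals but no gene name here. Because an apex is a mixture of cells, fewer cells of a type and less RNA per cell cannot be told apart.

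The 2 control arrays differed from each other more than any other pair of apex arrays from 1 group. Their signals correlated at 0.954, against 0.979 to 0.996 in the other 27 pairs, and 25.8% of probe sets lay at least 2-fold apart, against 0.305% to 10.3%. On an axis from the day 4 mean (position 0) to the day 9 mean (position 1), control array 1 lay at 0.0685 and control array 2 at 0.708. The mimic arrays lay at 0.886, 0.559 and 0.985, so on this axis control array 1 lay near day 4, whereas control array 2 was within the range of the mimic arrays. Both control arrays correlated about equally with the day 4 mean (0.964 and 0.966), but with the day 9 mean at 0.926 and 0.984. Control array 1 correlated at 0.983 with the single day 6 array of FRI;flc-3, which lacks FLC function, and control array 2 at 0.952. Whether samples were exchanged at day 6 was not tested, so each difference from control array 1 rests on that array's title. The arrays also differed in how signal depended on gene length: the slope per doubling of length was -0.42 in control array 1, 0.02 in control array 2 and 0.19, 0.01 and 0.21 in the mimic arrays. It ranged from -0.32 to -0.18 at day 4 and from 0.08 to 0.20 at day 9, so slope and position moved together across these arrays. With the length trend removed from each array, 3125 of the 10857 probe sets with a known gene length were called against day 6. Of the control probe sets that compare the 3' with the 5' end of a transcript, GAPDH differed by 1.35 in control array 1 and 1.63 in the FRI;flc-3 day 6 array, the highest of the 30 apex arrays. It differed by 1.11 in control array 2 and by 0.92 to 1.06 in the mimic. The actin and ubiquitin probe sets did not set control array 1 apart in this way, at 2.80 and 1.23 against 2.76 and 1.54 in control array 2. The part of RNA quality in the differences was not tested.

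**Figure D1:**
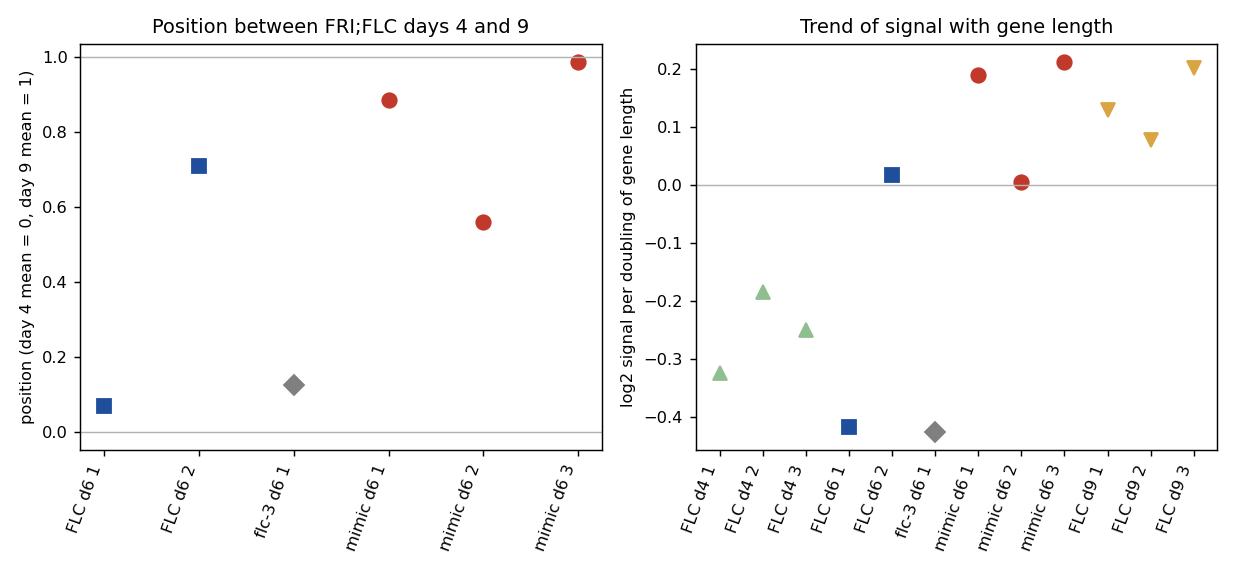
Position of each day 6 apex array between the FRI;FLC day 4 and day 9 means (left), and slope of log2 signal on log2 gene length for each array of days 4, 6 and 9 (right). Each point is 1 array; control array 1 (blue, FLC d6 1) lies at 0.0685 beside day 4 and control array 2 at 0.708 among the mimic arrays (red).

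Against both control arrays, 6164 probe sets (31.9%) were called, 3426 higher (17.7%) and 2738 lower (14.2%) in the mimic. Of all probe sets, 10.3% were called and at least 2-fold higher and 8.23% at least 2-fold lower. With the spread taken only from the groups compared, 588 were called, 171 higher and 417 lower. The total of 6164 rested on control array 1. Without it 1547 probe sets (8.01%) were called, 664 higher (3.44%) and 883 lower (4.57%), and 1424 of the 6164 remained. With control array 1 alone, 8896 (46%) were called, 25.1% higher and 20.9% lower. The neighbouring ages split in the same manner, with 8935 calls (46.2%, 24.7% higher and 21.5% lower) against day 4 and 1381 (7.15%, 3.04% higher and 4.11% lower) against day 9. Against the mean of both days 3702 (19.2%) were called, 9.94% higher and 9.22% lower. The mimic mean lay between the 2 control arrays for 5721 probe sets, and all 3 mimic arrays lay outside the range of both control arrays for 8407 (43.5%).

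A smaller set was called whichever control array was used. With both control arrays and with each one alone, 1254 probe sets (6.49%) were called in the same direction, 530 higher (2.74%) and 724 lower (3.75%) in the mimic. A test against 1 control array takes its spread from the other apex groups and assumes that the lone array varies as they do. With the spread taken only from the groups compared, 553 of the 1254 stayed called against both control arrays. Of the 1254, 459 (2.38% of all probe sets) were also called in the same direction against day 4 and against day 9. Of the 459, 149 were higher (0.771%) and 310 lower (1.6%). These 459 are described below as passing all 5 comparisons, which share the same 3 mimic arrays. Among the 530 higher and 724 lower probe sets, 106 and 73 were called against neither day 4 nor day 9. For these the test separated the mimic from the day 6 controls but not from the neighbouring ages. The 459 probe sets include 203 named genes, 65 higher and 138 lower. The genes described next were the 12 with the largest differences each way. They were taken from 226 genes higher (2.1% of 10786) and 361 lower (3.35%) that were called with each control array and whose groups did not overlap, so they were chosen by size and their values describe that choice.

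**Figure D2:**
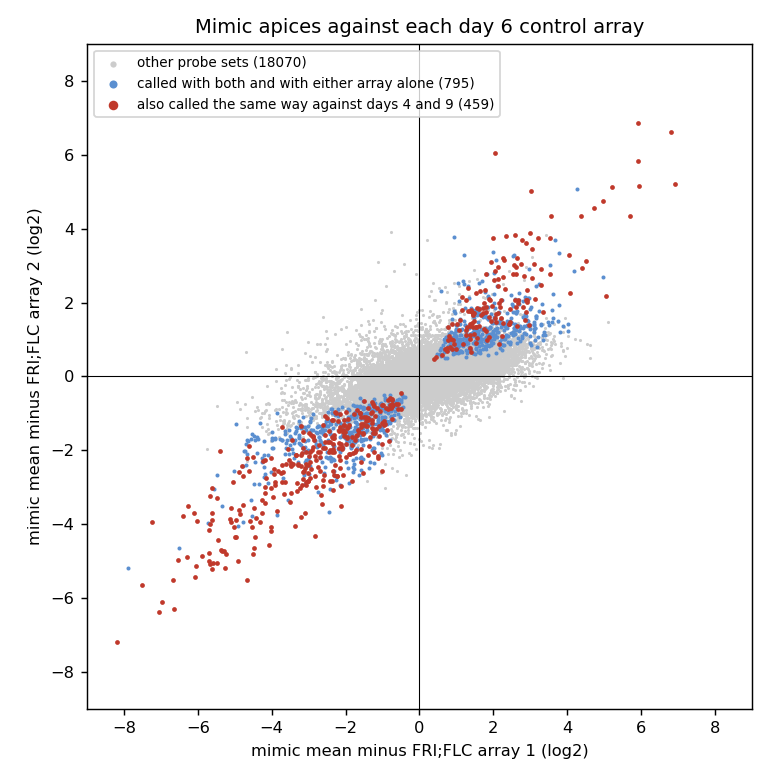
Difference of the mimic mean from control array 1 (horizontal axis, log2) and from control array 2 (vertical axis, log2) for each of 19324 probe sets. The cloud is wider along the horizontal axis, with 6682 probe sets at least 2-fold from control array 1 and 1950 from control array 2; red points mark the 459 that passed all 5 comparisons.

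Several of the largest increases were in genes near the floor in control apices. CYP71B22, a cytochrome P450, had signals of 7.79, 7.92 and 7.77 in the mimic and 1.90 and 2.00 in the control arrays. It differed by 5.88 ± 0.22 (SE, 3 arrays against 2, limma adjusted p = 2.4e-17) and was between 1.87 and 3.06 at days 4 and 9. All 3 mimic arrays were thus far above every FRI;FLC array of days 4 to 9. AT4G34400 had signals of 10.31, 9.30 and 10.45 in the mimic against 3.09 and 4.82, a difference of 6.07 ± 0.45 (adjusted p = 5.51e-11). WSD1, a wax ester synthase, was at 7.97, 6.78 and 7.85 against 2.31 and 2.41, a difference of 5.17 ± 0.37 (adjusted p = 2.61e-11). For both genes the mimic arrays were above day 4 and day 9 as well, where AT4G34400 did not exceed 5.07 and WSD1 did not exceed 4.05. AT3G28500 reached 8.83, 9.31 and 8.81 in the mimic and 4.26 and 4.42 in the controls. Its difference of 4.65 ± 0.30 from day 6 shrank to 1.39 against day 4, since day 4 arrays held 7.24 to 7.87.

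Calls with the control arrays were a condition for choosing these genes, so only the comparisons with days 4 and 9 were open. Of the 530 higher probe sets 149 passed all 5 comparisons, and of the 12 genes with the largest increases 8 did. These were the 4 genes above and AT3G14395 (3.49 ± 0.46), AT2G37900 (3.44 ± 0.35), CHX20 (3.24 ± 0.40), which encodes a cation/proton exchanger, and AT2G43600 (2.86 ± 0.38). COR15B, a cold-regulated chloroplast protein, was at 11.02, 10.62 and 11.14 in the mimic and 6.66 and 5.85 in the controls. Both neighbouring ages were above these controls, at 8.96 to 9.79 on day 4 and 10.32 to 10.41 on day 9. The FRI;flc-3 day 6 array was at 8.06. COR15B was called against day 4 (1.54, adjusted p = 6.69e-05) but not against day 9 (0.56, adjusted p = 0.277). NGA1, a B3-domain regulator of organ shape, was called against neither day 4 (-0.42, adjusted p = 0.241) nor day 9 (0.25, adjusted p = 0.75). Its mimic signals of 7.51, 7.91 and 8.06 exceeded the control signals of 4.85 and 4.92, but they overlapped the 7.28 to 8.54 of days 4 and 9. AT1G12570 (3.56 ± 0.43) and AT5G33370 (3.82 ± 0.43) were called against neither day as well. AT1G12570 overlapped both days, and the AT5G33370 mimic signals of 9.01 to 9.38 overlapped day 4 (9.24 to 9.94) and lay just below day 9 (9.52 to 9.70). The FRI;flc-3 day 6 array was low for these last 3 genes too, at 4.32 for NGA1, 3.44 for AT1G12570 and 6.47 for AT5G33370.

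The largest decreases were as steep, and several reached the floor of the array. AT3G20370 fell from 9.05 and 8.41 in the control arrays to 2.08, 1.98 and 1.97 in the mimic, by 6.72 ± 0.32 on the log2 scale (adjusted p = 6.23e-15). JAL33, a jacalin-related lectin, was at 9.28 and 8.40 in the controls and at 2.39, 2.43 and 2.07 in the mimic, a difference of -6.54 ± 0.34 (adjusted p = 3.22e-14). AT3G02910 was at 11.84 and 10.69 in the controls and 4.71, 5.87 and 4.97 in the mimic, a difference of -6.08 ± 0.30 (adjusted p = 7.01e-15). For these 3 genes no mimic array came near any FRI;FLC array of days 4, 6 or 9. BCAT4, which starts the chain elongation of methionine for glucosinolates, was among the brightest genes of the control apices, at 12.46 and 12.39. It was at 7.39, 7.96 and 6.22 in the mimic, a difference of -5.23 ± 0.25 (adjusted p = 6.23e-15). MSRB5, a methionine sulfoxide reductase, was at 11.35 and 10.94 in the controls and 6.26, 6.40 and 5.69 in the mimic, a difference of -5.03 ± 0.21 (adjusted p = 2.45e-16). MSRB5 fell below day 4 (8.93 to 9.63) and below day 9 (11.71 to 11.82), although its level rose between those days.

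For the decreases too, only days 4 and 9 were open. Of the 724 lower probe sets 310 passed all 5 comparisons, and of the 12 genes with the largest decreases 10 did. Beside the 5 above these were AT3G46490 (-5.38 ± 0.29), AT4G11190 (-5.27 ± 0.34), AT5G50335 (-5.77 ± 0.45), AT2G30930 (-5.37 ± 0.37) and the lectin gene JAL22 (-5.09 ± 0.33). For AT4G11190 the day 6 controls (7.35 and 6.91) and the FRI;flc-3 day 6 array (7.10) stood above the means of day 4 (3.43) and day 9 (4.84). Its mimic signals were at the floor, and its difference shrank to -1.57 against day 4 and -2.98 against day 9. AT5G26620 and AT3G53250 did not pass. AT5G26620 was at 9.84 and 7.13 in the controls, 2.05, 1.90 and 1.91 in the mimic and only 2.71 to 3.49 at day 4, so the control arrays stood apart from day 4. AT3G53250 was at 7.86 and 6.02 in the controls and 1.40, 1.17 and 1.51 in the mimic, but had already dropped to between 2.05 and 2.42 by day 9. The 24 genes were all called under each of the 13 alternative fits in which they were tested, with the same sign. Calls without each control array were a condition for choosing these genes, so the outcome of those fits was fixed beforehand.

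**Figure D3:**
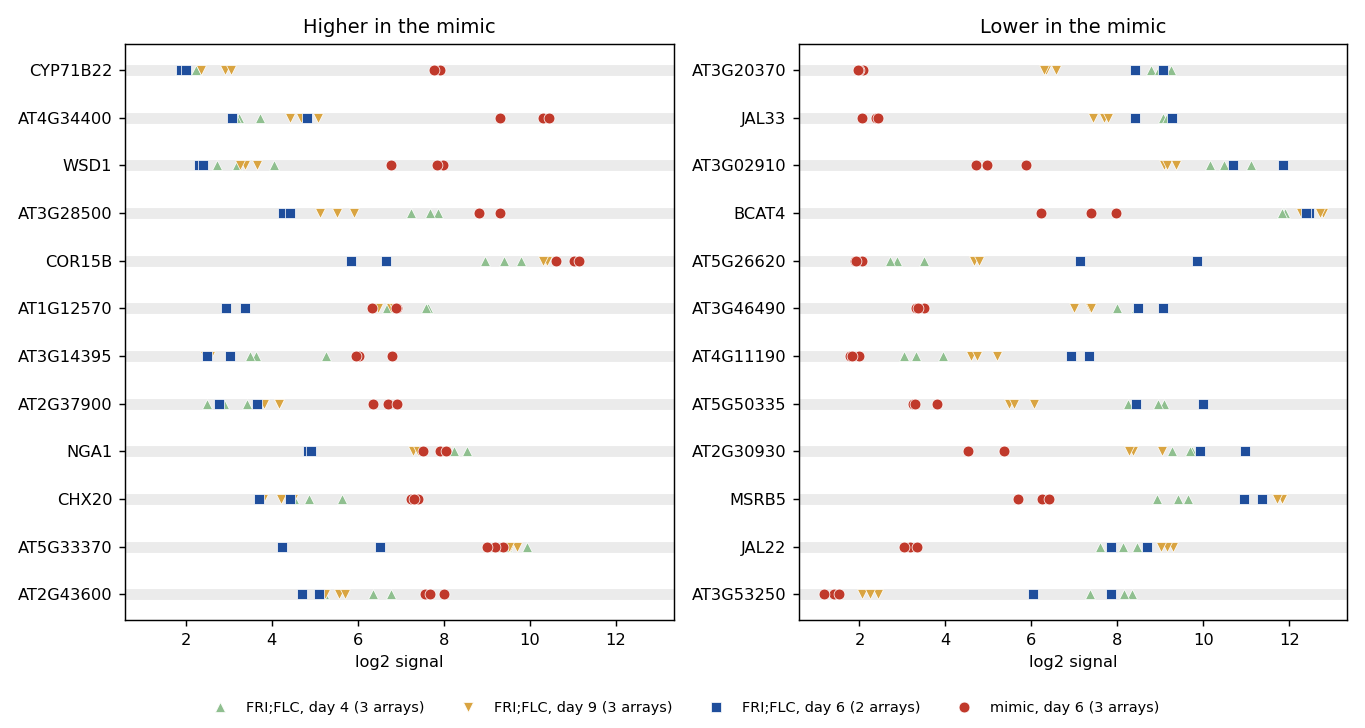
Log2 signal of the 12 genes with the largest increases (left) and the 12 with the largest decreases (right) on each array: mimic (red circles), both day 6 controls (blue squares), day 4 (green triangles) and day 9 (yellow triangles). Mimic points lie outside both control points in all 24 genes, whereas for NGA1 and AT1G12570 they overlap days 4 and 9 and for AT5G33370 day 4.

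Of the floral transition genes, 5 of 31 listed were measured and 3 were called, 2 higher and 1 lower. Of all probe sets, 17.7% were called higher and 14.2% lower. FD, a bZIP factor that partners the flowering signal at the apex, was at 4.84, 4.94 and 5.16 in the mimic and 2.46 and 2.21 in the controls. It rose by 2.65 ± 0.29 (adjusted p = 9.2e-08) and by 1.82 relative to day 9, and passed all 5 comparisons. AGL42, a MADS-box gene of the apex, was at 4.98, 3.41 and 5.13 in the mimic and 2.37 and 2.04 in the controls, a rise of 2.30 ± 0.36 (adjusted p = 2.85e-05). The second mimic array was the lowest of the 3 for AGL42, but it too exceeded all arrays of days 4 and 9, which did not go above 2.81. AGL24, a MADS-box promoter of flowering whose signal climbs with age, went the other way. It was at 5.21, 4.67 and 5.35 in the mimic and 6.69 and 6.65 in the controls, a difference of -1.59 ± 0.37 (adjusted p = 0.00174). The mimic level of AGL24 lay between day 4 (mean 3.97) and day 9 (mean 7.84), 1.10 above the first and 2.76 below the second. AGL19 and AGL71 were not called, with differences of 0.07 and -0.08.

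The miR172 targets SMZ and SNZ, AP2-like repressors of flowering, were the 2 measured of 6 listed, and both were called lower. SMZ was at 5.35, 5.47 and 5.51 in the mimic and 7.37 and 6.60 in the controls, a difference of -1.54 ± 0.30 (adjusted p = 0.000311). It was lower than at day 4 by 3.34 and than at day 9 by 1.23, and passed all 5 comparisons. SNZ was at 4.36, 4.68 and 4.56 in the mimic and 5.38 and 6.63 in the controls, a difference of -1.47 ± 0.36 (adjusted p = 0.00257). All mimic arrays were below all arrays of days 4 and 9 for SNZ, but with control array 1 alone its difference of -0.85 had an adjusted p of 0.0836. Across the wider MADS-box family, 5 of 21 measured members were called higher and 2 lower, against 17.7% and 14.2% of all probe sets. Among them AGL42 and AGL24 were called with each control array alone. AGL16 (1.37 ± 0.42) had an adjusted p of 0.701 without control array 1.

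The ER body is a defence compartment of Brassicaceae seedlings that stores a beta-glucosidase. Most measured genes of a list of ER body genes and jacalin lectins were lower in the mimic. Of 7 measured genes of this list, 6 were called lower (14.2% of all probe sets were), with a list median of -2.95 against 0.04 over all probe sets, and 5 passed all 5 comparisons. PYK10, the beta-glucosidase itself, was at 9.13, 9.29 and 9.20 in the mimic and 11.79 and 11.89 in the controls, a difference of -2.63 ± 0.15 (adjusted p = 2.68e-13). PYK10 was steady in the other apices, at 11.58 to 11.77 on all arrays of days 4 and 9. JAL34 was at 8.09, 7.95 and 7.14 against 10.81 and 11.41, and JAL22 at 3.17, 3.03 and 3.33 against 7.85 and 8.69. NAI2, which is needed to form ER bodies, differed by -2.95 ± 0.35 (adjusted p = 5.24e-07). NAI1, a bHLH factor upstream of these genes, was called against both control arrays (-1.84 ± 0.37) but not without control array 1 (-1.17, adjusted p = 0.0827), and its level of 4.52 to 4.99 was close to the 5.21 to 5.57 of day 9. JAL23 was not called (0.29 ± 0.42, adjusted p = 0.635). Loss of FLC function in FRI;flc-3 apices gave smaller differences of the same sign, called for JAL33 (-0.86), JAL22 (-0.68), JAL34 (-0.62) and PYK10 (-0.38). The list combines lectins and ER body genes and was written with earlier results of these data known, as were the other lists.

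Glucosinolates are sulfur-rich defence compounds of the same plant family. Of 5 measured genes, 4 were called lower (14.2% of all probe sets were) and none higher (17.7%), but only BCAT4 and AT2G31790 passed all 5 comparisons. AT2G31790 was at 8.03, 8.16 and 8.32 in the mimic and 8.99 and 9.93 in the controls, a difference of -1.29 ± 0.24 (adjusted p = 0.000196). AOP3, an enzyme of side-chain modification, stayed near the floor in all groups, at 2.25 to 2.49 in the mimic and 3.36 and 2.79 in the controls (-0.74 ± 0.19). Without control array 1 its adjusted p was 0.245. UGT74B1, a glucosyltransferase of the core pathway, was called (-0.72 ± 0.18), but not with control array 1 alone (adjusted p = 0.0727). AOP1 was not called (0.16).

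Late anthocyanin genes were also lower. Of 7 measured flavonoid and anthocyanin genes, 4 were called lower and 1 higher (14.2% and 17.7% of all probe sets were), and the 4 lower ones passed all 5 comparisons (1.6%). DFR, which commits dihydroflavonols to anthocyanin, was at 7.06, 6.45 and 7.25 in the mimic and 10.58 and 10.10 in the controls, a difference of -3.42 ± 0.31 (adjusted p = 2.65e-09). UF3GT, a sugar transferase that decorates anthocyanins, was at 4.29, 4.48 and 4.43 against 8.00 and 6.77, a difference of -2.99 ± 0.40 (adjusted p = 2.56e-06). For both genes every mimic array was also below every array of days 4 and 9. AT5MAT, which adds malonate to anthocyanins, differed by -1.76 ± 0.35 (adjusted p = 0.000437), and AT4G14090, listed with it, by -1.48 ± 0.34 (adjusted p = 0.00171). UGT78D1, which acts on flavonols and not on anthocyanins, was called higher (0.88 ± 0.20), but not without control array 1 (0.28, adjusted p = 0.339). UGT78D2 and UGT78D3 were not called, at -0.27 and -0.16.

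Expansins loosen the cell wall during growth, and XTH enzymes cut and rejoin its xyloglucan. Of 21 measured members of these families, 10 were called lower and none higher (14.2% and 17.7% of all probe sets were), with a median of -0.71 against 0.04 over all probe sets. Without control array 1 the median was -0.39. From day 4 to day 9 of FRI;FLC apices 12 of the 21 were called lower and none higher (23.5% and 25.1% of all probe sets), with a median of -0.63. Against day 9 the mimic had 6 members lower and 1 higher (4.11% and 3.04% of all probe sets), with a median of -0.13. All 5 comparisons were passed by 5 members, against 1.6% of all probe sets. EXPA8 was at 4.37, 4.85 and 4.26 in the mimic and 9.60 and 8.42 in the controls, a difference of -4.52 ± 0.45 (adjusted p = 1.83e-08). EXLB1 was at 2.06, 1.79 and 1.88 against 7.91 and 5.82, a difference of -4.96 ± 0.50 (adjusted p = 2.89e-08), and EXLA1 differed by -4.32 ± 0.52 (adjusted p = 4.77e-07). EXPA8 also declined with age in FRI;FLC apices, from between 8.90 and 9.39 at day 4 to between 5.50 and 5.97 at day 9. The mimic went beyond day 9, by 1.32 for EXPA8 (adjusted p = 0.0427), 2.61 for EXLB1 (adjusted p = 0.000184) and 2.12 for EXLA1 (adjusted p = 0.00297). EXPB1 (-3.12 ± 0.39) and XTH33 (-2.37 ± 0.24) were the other members that passed all 5 comparisons. A further 5 members were called lower without passing all of them, among them EXLA2 (-1.71), which held with each control array, and 11 were not called.

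**Figure D4:**
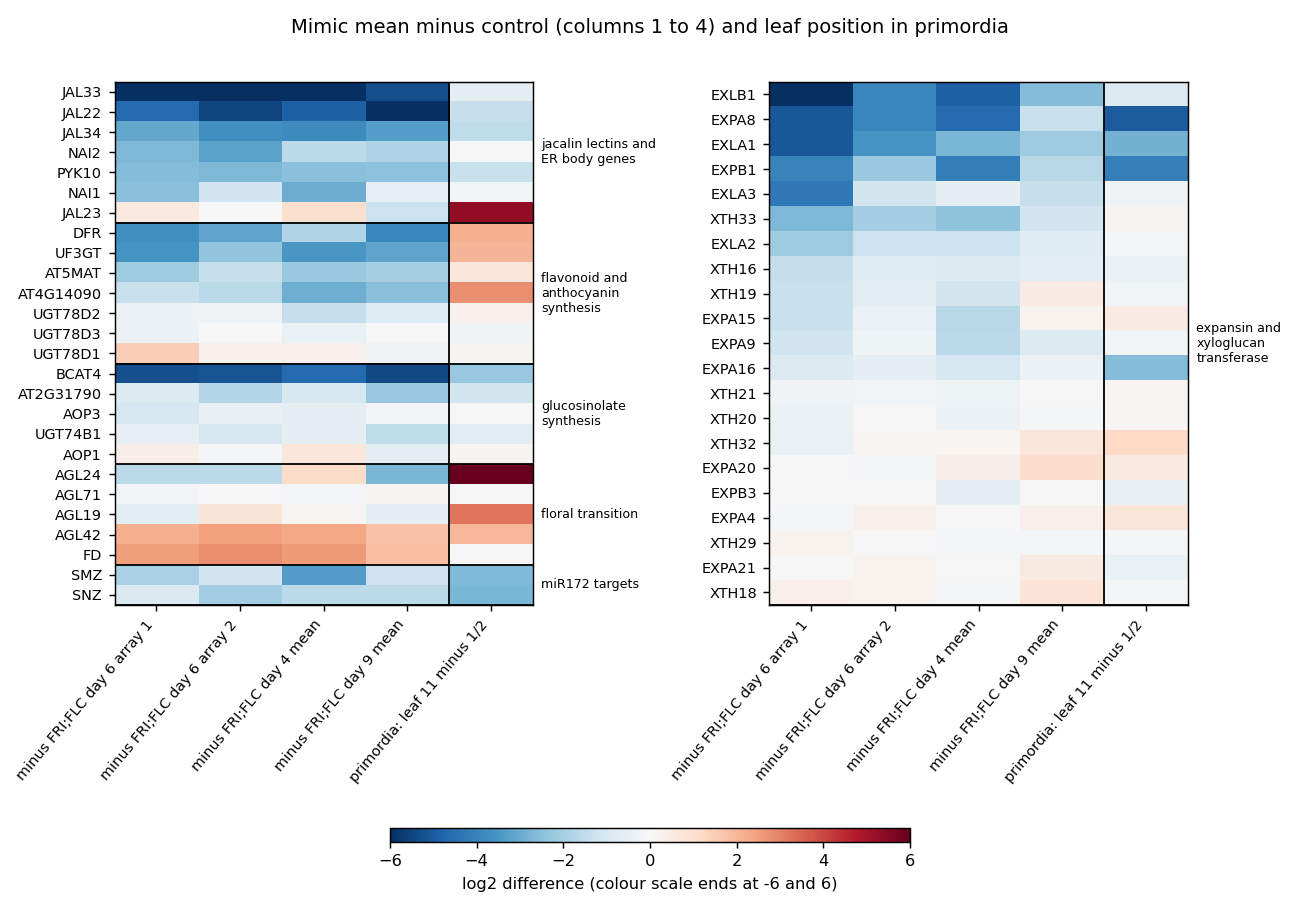
Log2 differences of the mimic mean from control array 1, control array 2, day 4 and day 9, and the leaf 11 minus leaves 1/2 difference of FRI;FLC primordia, for each measured member of 6 gene lists. Blue is lower and red higher; JAL33, JAL22, JAL34, DFR, UF3GT, AT5MAT, AT4G14090 and BCAT4 are blue in all 4 mimic columns, while the 4 anthocyanin genes among them are red in the primordia column.

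Other genes of the cell surface and cytoskeleton were tetraspanins, tubulins and TBL genes, and are read against the 17.7% of all probe sets called higher and the 14.2% called lower. Of 10 tetraspanin genes, 4 were called lower, and TET3 alone passed all 5 comparisons, at 5.75, 6.54 and 6.32 in the mimic and 11.00 and 8.63 in the controls (-3.62 ± 0.37, adjusted p = 4.09e-08). TET2 (-2.30 ± 0.45) and TET6 (-1.46 ± 0.36) had adjusted p-values of 0.123 and 0.254 without control array 1. Of 7 tubulin genes, 3 were called higher and 1 lower. TUB1, a beta-tubulin, was the lower one, at 9.33, 8.69 and 9.12 against 10.63 and 11.02 (-1.78 ± 0.20, adjusted p = 1.87e-07), and it passed all 5 comparisons. TUB7 (0.72) and TUA1 (0.69) were not called without control array 1 (adjusted p = 0.469 and 0.174). Of 19 TBL genes for cell wall acetylation, 3 were called higher and 1 lower, none with each control array alone. TBL32 (0.96), TBL37 (0.96) and TBL36 (-0.86) had the largest differences.

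Among enzymes of secondary metabolism, 6 of 43 measured glycosyltransferases were called higher and 9 lower, against 17.7% and 14.2% of all probe sets. The P450 and glutathione transferase counts that follow stand against the same shares. UGT72E1, which glucosylates lignin precursors, was at 4.75, 5.48 and 4.28 in the mimic and 9.98 and 8.70 in the controls (-4.50 ± 0.44, adjusted p = 1.66e-08). UGT84A3, which acts on hydroxycinnamic acids, went up, at 4.96, 4.84 and 5.07 against 2.07 and 3.22 (2.32 ± 0.29, adjusted p = 8.85e-07). Both passed all 5 comparisons, as did UGT72B3 (-1.42) and UGT85A7 (-2.07). UGT87A2 (2.29 ± 0.49) was at 2.10 in control array 1 and 5.32 in control array 2, and was not called without the first (adjusted p = 0.281). Of 17 cytochrome P450 genes, 5 were called higher and 2 lower. CYP71B22 and CYP71B24 (1.60 ± 0.24) passed all 5 comparisons, whereas CYP84A4 (-2.45, adjusted p = 0.641 without control array 1) and CYP71B34 (1.99, adjusted p = 0.187) did not. Of 12 glutathione transferases, 5 were called lower, of which GSTU20 (-0.67 ± 0.11) passed all 5 comparisons and GSTF4 (-1.84 ± 0.35) was not called against day 4 (0.02, adjusted p = 0.957). GSTU27 (-1.60) and GSTU22 (-0.81) were not called without control array 1 (adjusted p = 0.0846 and 0.848).

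Counts for the next small lists stand against 17.7% of all probe sets called higher and 14.2% called lower. Of cuticle and wax genes, 2 of 3 measured were called higher, and both passed all 5 comparisons. They were WSD1, described above, and SHN3, an AP2-type activator of wax and cutin genes, which was at 3.28, 3.81 and 3.72 in the mimic against 2.74 and 2.60 (0.93 ± 0.19, adjusted p = 0.000467). The FRI;flc-3 day 6 array, at 3.47, lay among the mimic arrays for SHN3. The remaining measured gene of this list was not called against both control arrays, and it was called lower than at day 4 and at day 9. Of 5 cold and dehydration genes, 2 were called higher and 1 lower. LTI30 (2.03 ± 0.58, adjusted p = 0.156 without control array 1) and COR47 (-0.89 ± 0.27, adjusted p = 0.073) are dehydrins and had differences of opposite sign. Of 7 calmodulin-like genes, 4 were called lower, of which CML30 (-1.32 ± 0.25) held with each control array, while CML42 (-1.74) and CML43 (-1.09) were not called without control array 1. Of 11 SWEET sugar transporters, 1 was called, SWEET14 (-0.35 ± 0.12), which was near the floor in all groups.

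Hormone genes were sparsely represented among the named probe sets. Their counts, and those of WRKY and senescence genes, stand against 17.7% of all probe sets called higher and 14.2% called lower. ARR15, a type-A response regulator induced by cytokinin and the 1 measured gene of its list, was at 7.56, 8.00 and 7.64 in the mimic and 9.41 and 8.65 in the controls. It fell by 1.30 ± 0.23 (adjusted p = 0.000161) and passed all 5 comparisons. Of 15 auxin genes, 2 were called higher and 1 lower. YUC2, an enzyme of auxin synthesis, was at 5.01, 5.42 and 4.70 against 3.01 and 2.82 (2.13 ± 0.30, adjusted p = 7.13e-06), and was not called against day 4 (-0.23, adjusted p = 0.485). YUC6 (0.67) and GH3.17 (-1.03) were called with neither control array alone. Of 3 gibberellin genes, the receptor gene GID1B was called higher (1.81 ± 0.29), and its mimic signals of 7.67 to 8.39 overlapped day 4 (8.34 to 9.04). Of 4 jasmonate genes, MYC3 was called higher (2.37 ± 0.50) and PDF1.2 lower (-1.25 ± 0.48), neither without control array 1 (adjusted p = 0.184 and 0.767). WRKY factors gave 3 higher of 6, of which WRKY47 (2.39 ± 0.39) held with each control array. WRKY20 (2.01) was not called without control array 1 (adjusted p = 0.109), nor WRKY53 (1.46) without control array 2 (adjusted p = 0.337). Senescence genes gave 2 higher and 2 lower of 6. GAMMA-VPE, a vacuolar protease, rose by 0.84 ± 0.14 and was not called against day 9 (0.17, adjusted p = 0.539), and ALPHA-VPE (-0.71) was not called without control array 1 (adjusted p = 0.446).

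The labelled tissue was checked against its markers. Of 29 shoot meristem genes 8 were measured, and 2 were called lower and none higher (14.2% and 17.7% of all probe sets were). From day 4 to day 9 of FRI;FLC apices 6 of the 8 were called lower and 1 higher (23.5% and 25.1% of all probe sets). CLV3, the peptide gene of the stem cell domain, was present in the controls at 4.86 and 4.43. It was lower and near the floor in the mimic, at 2.61, 3.07 and 2.86 (-1.80 ± 0.28, adjusted p = 2.91e-05). CLV3 followed the same course in FRI;FLC apices, from 4.32 to 4.38 at day 4 to 2.56 to 2.68 at day 9, and mimic and day 9 did not differ by the test (0.24, adjusted p = 0.714). LAS, an axillary meristem gene, was called lower (-0.68 ± 0.26) but not without control array 1 (adjusted p = 0.84). ULT1, active in the meristem, was bright on every array and not called (-0.13). YAB3, a marker of young leaves, was at 11.19 to 11.41 in the mimic and 11.04 and 10.91 in the controls (0.29, adjusted p = 0.119). Root and flower organ markers and salicylate genes were not analysed here, and of 17 seed markers OLEO3 alone was measured, at 2.65 to 3.67 in the mimic and 4.09 and 3.53 in the controls.

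Genes of leaf form and of leaf cell types showed how far the control arrays decided the outcome. Their counts are read against 17.7% of all probe sets called higher and 14.2% called lower. Of 17 leaf shape genes, 5 were called higher and 1 lower, and NGA1 and NGA2 (1.21 ± 0.24) held with each control array, but neither was called higher than at day 4 or day 9. JAG, which promotes blade growth, was at 7.42, 7.28 and 6.01 in the mimic and 5.45 and 5.76 in the controls (1.30 ± 0.44, adjusted p = 0.0248, or 0.236 without control array 1). TCP15 was at 7.94 in control array 2 and higher in control array 1, and its difference of -1.88 had an adjusted p of 0.394 without the first. Of 4 stomatal genes, SPCH (1.07), MUTE (0.89) and FMA (1.27), which act in succession in the stomatal lineage, were called higher, but without control array 1 their adjusted p-values were 0.435, 0.0583 and 0.258. None of the 3 was called against day 9, with differences of -0.61, -0.08 and -0.31. Against day 4, MUTE was lower (-1.30, adjusted p = 1.17e-05), FMA higher (1.13, adjusted p = 0.00152) and SPCH not called (-0.15). STOMAGEN was not called (0.02). The 3 measured trichome genes were not called by limma. TRY, a repressor of trichome fate, was at 8.62, 8.85 and 8.46 in the mimic and 8.92 and 7.92 in the controls (0.22 ± 0.25, adjusted p = 0.517), and GIS and SIM differed by 0.37 and 0.11. The clock and light genes GI (0.47) and HYH (-0.08) were not called either.

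Of 22 cell division genes, 5 were called higher and none lower, and the higher share is close to the 17.7% of all probe sets. Haspin, a histone kinase of mitosis, was at 6.06, 6.08 and 5.94 in the mimic and 2.40 and 3.80 in the controls (2.92 ± 0.44, adjusted p = 1.72e-05), but it was at 5.25 to 5.51 at day 9. AUR3 (0.83) and CDC27a (0.74) were not called without control array 1 (adjusted p = 0.538 and 0.178). Of 13 nuclear photosynthesis genes, 6 were called higher and 3 of these held with each control array. RCA, rubisco activase, was at 12.38, 12.50 and 12.47 in the mimic and 11.06 and 11.74 in the controls (1.05 ± 0.18), and did not differ from day 9 by the test (0.04, adjusted p = 0.942). NdhL (1.52 ± 0.34) and NdhS (1.34 ± 0.23), both of the NDH complex, were not called against day 9 either, with differences of 0.38 and 0.04. LHCB4.3, an antenna protein, was called higher than at day 4 and day 9 (1.53 and 1.81), but not with control array 1 alone (0.97, adjusted p = 0.0694). Of 69 plastid-encoded genes, 6 were called higher and 8 lower, below the shares of all probe sets (17.7% and 14.2%), and 3 and 2 of these held with each control array. The very short genes petG (-3.60 ± 0.54) and petN (-3.14 ± 0.70) were lower and the long gene psaA (2.80 ± 0.45) higher. Length slopes were lower in control array 1 than in the mimic arrays, and the part of gene length was not tested. Without control array 1 the differences were -2.42, -0.80 and 2.44. Against day 9, petG (-0.13, adjusted p = 0.943) and petN (-0.39, adjusted p = 0.835) were not called and psaA was lower (-1.38, adjusted p = 0.034). Against day 4, petG (-3.51) and petN (-4.63) were called lower and psaA was not called (-0.01). For petN the FRI;flc-3 day 6 array (9.52) and control array 1 (9.07) were high, and control array 2 (4.39) was close to the mimic arrays (3.16 to 4.36).

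Leaf primordia from separate plants gave a comparison that shares no array with those above. FRI;FLC primordia of 1 mm were sampled at leaves 1/2, which are juvenile, and at leaf 11, which is adult, with 3 arrays each. Between them 44.2% of all probe sets were called, 23% higher and 21.2% lower at leaf 11. Of the 149 probe sets that were higher in the mimic in all 5 comparisons, 64 (43%) were higher and 33 (22.1%) lower at leaf 11. Of the 310 that were lower in the mimic, 173 (55.8%) were lower and 39 (12.6%) higher at leaf 11. Most of these calls thus had the same direction in both comparisons. The wider set of 1254 did not share this on its higher side: of its 530 higher probe sets 23.8% were higher and 33.4% lower at leaf 11, and of its 724 lower ones 16.4% were higher and 44.2% lower. Over the 459 probe sets the differences correlated at 0.394, and over all 19324 at 0.079, as a description, since probe sets are not independent replicates.

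Individual genes show both kinds of behaviour. CYP71B22 was at 2.15 to 2.53 in primordia of leaves 1/2 and 6.28 to 6.79 at leaf 11 (4.23 ± 0.26, adjusted p = 6.36e-16), and AT3G28500 rose by 4.17 ± 0.23 (adjusted p = 4.4e-17). EXPA8 went from 7.17 to 7.61 down to 2.09 to 2.55 (adjusted p = 1.54e-21), and AT3G20370 (-4.85 ± 0.18) and MSRB5 (-4.26 ± 0.29) went down as well. SMZ (-2.64 ± 0.23) and SNZ (-2.76 ± 0.19) were also lower at leaf 11. These genes had the same sign in mimic apices and in adult primordia. The anthocyanin genes had the opposite sign: DFR went from 7.94 to 8.06 at leaves 1/2 to 9.76 to 10.37 at leaf 11 (2.14 ± 0.20, adjusted p = 2.65e-11). UF3GT (2.03 ± 0.24), AT4G14090 (2.81 ± 0.25) and AT5MAT (0.66 ± 0.16) were likewise higher at leaf 11. AGL24 rose by 7.76 ± 0.16 from leaves 1/2 to leaf 11, while in the mimic it was lower than in the day 6 controls. CHX20, higher in the mimic, was lower at leaf 11 (-2.48 ± 0.18, adjusted p = 1.13e-13). FD stayed at 2.32 to 2.52 in all 6 primordia arrays, and JAL33 was near the floor at both positions.

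**Figure D5:**
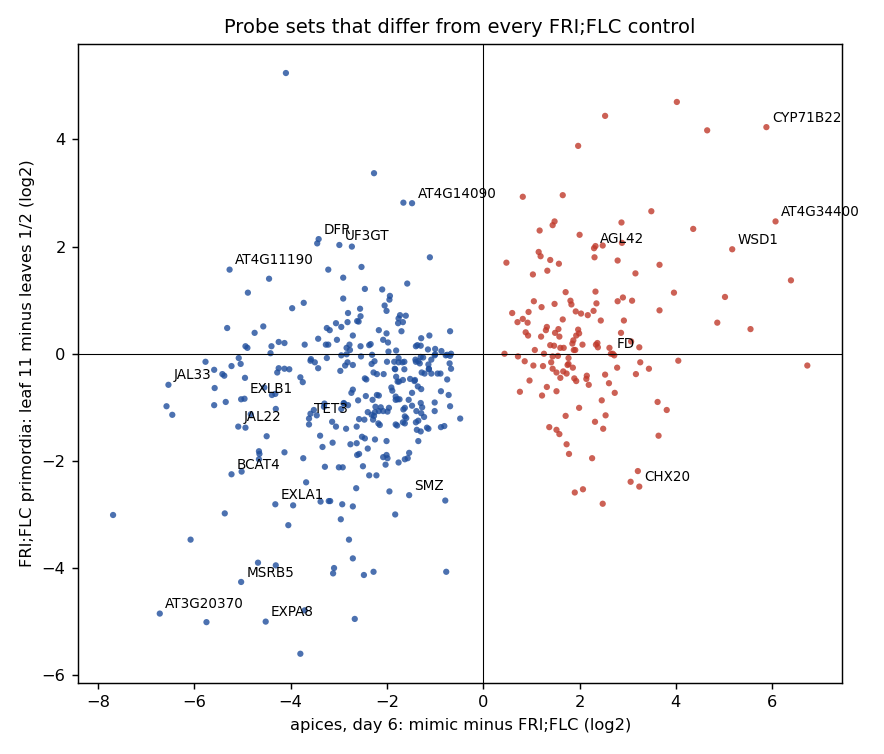
Mimic minus FRI;FLC difference at day 6 (horizontal axis, log2) against the leaf 11 minus leaves 1/2 difference in FRI;FLC primordia (vertical axis, log2) for the 459 probe sets that passed all 5 comparisons. Most labelled genes lie in the lower left or upper right, with DFR, UF3GT, AT4G14090 and AT4G11190 in the upper left and CHX20 in the lower right.

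Apex age gave a second comparison without shared arrays for the 1254 probe sets called with each control array. From day 4 to day 9 of FRI;FLC apices, 48.6% of all probe sets were called, 25.1% higher and 23.5% lower at day 9. Of the 530 that were higher in the mimic, 225 (42.5%) rose and 51 (9.62%) fell with age. Of the 724 that were lower in the mimic, 291 (40.2%) fell and 167 (23.1%) rose. Over all 19324 probe sets, the day 9 minus day 4 differences correlated at 0.437 with the mimic differences from day 6. On the axis between those days control array 1 lay at 0.0685 and the mimic arrays at 0.559 to 0.985. The part of array position in the shared direction was not tested. Loss of FLC function, tested as FRI;flc-3 minus FRI;FLC apices averaged over days 4, 9 and 11, gave calls for 1.12% of probe sets, 0.74% higher and 0.378% lower. Of the 530, 36 (6.79%) were higher and 10 (1.89%) lower without FLC function, and of the 724, 10 (1.38%) were higher and 20 (2.76%) lower. AT4G34400 (2.34 ± 0.23, adjusted p = 2.3e-07), FD (0.76, adjusted p = 0.00494) and CYP71B22 (0.70, adjusted p = 0.000654) rose in both comparisons, while AGL24 was higher without FLC function (1.07, adjusted p = 0.00176) and lower in the mimic. AT2G43600 went the other way, lower without FLC function (-1.60, adjusted p = 1.22e-05) and higher in the mimic.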

How the data were processed

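The deposited table holds log2 signals of 19324 probe sets on 156 arrays, made per the labels from amplified, biotin-labelled cDNA. The tools GCRMA and MAS5 appear, without roles, among the submitters' processing notes. Probe sets were named through the platform annotation, updated to RefSeq TAIR10.1 symbols (10857 of the 10918 probe sets with 1 gene had a RefSeq length); 407 had several genes and 7999 were not listed. The file's genome build is not given in the sources used here, so no coordinates are printed.

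Moderated tests (limma 3.58.1, R 4.3.3, trended prior variance, no block) used all 30 apex arrays in 11 groups, and the 36 primordia arrays in 12 groups likewise. The fit was tested on simulated data with independent noise of equal spread in all groups. That simulation held no array-wide shift like the one between the control arrays, so it cannot speak to its effect. Alternatives were quantile normalization, a signal filter, no prior trend, array weights, only the groups compared, a replicate block, removal of each array's gene length trend and leaving out each array. Leaving the FRI;flc-3 day 6 array out of the fit was added after seeing the data.

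Named genes were the 12 largest differences each way, ranked by the smaller difference from either control array among genes called with both and with either control array and not overlapping them (1 probe set per gene, the brightest); the 3 largest called members of each list; and a fixed set including DFR, TRY, CLV3 and JAG. Others named were chosen after their values were seen. The comparison and the lists were chosen with earlier results of these data known. Probe sets of close family members may share signal. Array signal holds no count, so the number of arrays limits the precision.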

Additional observations from a re-analysis of the deposited data

How the results depend on the processing

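Of 1156 values for 93 named genes under 13 alternatives, 972 kept the call status, 184 lost the call and none reversed. Of the 459 probe sets that passed all 5 comparisons, 389 stayed called with array weights, 314 with only the groups compared and 202 of 203 with a known length after removal of the length trend. Of the 1254 called with each control array, 903 (72%), 553 (44.1%) and 570 of 585 did so. Calls of the mimic against day 6 (6164) were 1583 with array weights (769 higher, 814 lower), 588 with only the groups compared (171 higher, 417 lower), 3125 of 10857 after removal of the length trend and 3685 of the brighter 9662 probe sets. Leaving out 1 array gave 1547 (without control array 1) to 8896 (without control array 2). The replicate block gave 6273, and it changed no other count of calls by over 1.5 times. Same-numbered mimic and control arrays deviated with correlations of -0.236 and -0.441, so the numbers were not taken to pair the arrays. Array weights raised the calls against day 9 from 1381 to 5174, against the mean of days 4 and 9 from 3702 to 8535 and for loss of FLC from 216 to 464. The brighter probe sets and the length fit, which test fewer probe sets, gave 5046 and 4651 against day 4, 693 and 659 against day 9, 2167 and 1843 against both days, 5429 and 5005 for day 9 against day 4, 65 and 76 for loss of FLC, and 5245 and 4699 in primordia. Against the mean of days 4 and 9, leaving out 1 array gave 1685 (without mimic replicate 3; 1970 without replicate 1) to 4351. The cause of these shifts was not tested. With 2 control arrays that differ, counts over all probe sets are uncertain, and levels near 2 limit the size of differences.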

Other observations

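Other named genes that passed all 5 comparisons but belong to none of the lists were picked after their values had been seen. Methionine sulfoxide reductases, which repair oxidised methionine, were lower beyond MSRB5: MSRB6 was at 3.19, 3.40 and 2.85 in the mimic and 8.18 and 6.00 in the day 6 controls (-3.95 ± 0.40, adjusted p = 2.19e-08), and MSRB9 was at 8.18, 8.45 and 8.18 against 11.08 and 10.53 (-2.53 ± 0.27, adjusted p = 6.94e-08). Both lay below every array of days 4 and 9. In primordia MSRB6 was lower at leaf 11 than at leaves 1/2 (-2.83 ± 0.21), as MSRB5 was, whereas MSRB9 was higher (1.62 ± 0.17).

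BZIP61, a bZIP transcription factor, was at 4.96, 5.37 and 5.24 in the mimic and 8.51 and 8.07 in the controls (-3.10 ± 0.28, adjusted p = 3.52e-09), and it was lower by 4.00 ± 0.22 at leaf 11. BGLU33, a beta-glucosidase, differed by -2.62 ± 0.27 (adjusted p = 3.31e-08) and was lower at leaf 11 by 1.89. QQS, an orphan gene known for its part in starch levels, was at 9.68, 8.87 and 9.25 in the mimic and at 7.21 and 3.22 in the control arrays. No array of days 4 and 9 exceeded 3.67 for QQS. Its difference of 4.05 ± 0.81 (adjusted p = 0.000465) was 2.05 with control array 1 alone and 6.04 with control array 2 alone.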
